A study of Mus musculus with 2 samples.

Results

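Pi16 Dpp4 progenitors were the stromal cells of mouse fat that carried the interstitial progenitor genes Pi16, Dpp4 and Sema3c, a set also called MSC3-like in this tissue. They were chosen by a gate on raw UMIs, the molecule counts of single-cell sequencing. A cell had at least 200 genes, at least 10 UMIs of Dcn (decorin, a fibroblast proteoglycan) and at least 3 UMIs of Pi16, Dpp4 and Sema3c in sum. It also held at most 1 UMI of Upk3b plus Msln (mesothelium), under 3 of Cdh5 plus Cldn5 (endothelium), under 5 of Rgs5, Kcnj8, Abcc9 and Notch3 (mural cells) and under 10 of C1qa, C1qb and C1qc (macrophages). Of 2174 barcodes with at least 200 genes, 220 met the gate. Fibroblasts that met the same limits with fewer than 3 UMIs of the gate genes, 405 cells in all, are called Pi16-low fibroblasts and serve as the nearest comparison.

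The stromal vascular fraction (SVF), the non-adipocyte cells released by digestion of the fat pad, came from epididymal white adipose tissue (eWAT) of male C57BL/6J mice (C57BL/6 in the sample labels). One group ate a low-fat diet (LFD) and the other a high-fat diet (HFD), each for 24 wk from 6 wk of age. The diet was read from each sample's own title and treatment label, because the shared protocol text names a low-fat diet for both samples. Each diet was 1 library of the 10x Chromium system, and the number of mice pooled in a library was not stated in the sources used here. The comparison asks how progenitors of visceral fat differ after long feeding of either diet. With 1 library per diet no test of a diet effect is possible, so a difference below compares 2 libraries, in which diet, animals and preparation cannot be told apart.

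Interstitial progenitors lie in the connective tissue septa around fat lobules and are regarded as an early, multipotent stage of the adipocyte lineage. They are thought to feed more committed preadipocytes, which lose Dpp4 and gain adipogenic genes on the way to lipid storage. Like other fibroblasts they secrete collagens, microfibril proteins and the enzymes that crosslink and trim them.

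The 148 LFD members had a median depth of 9263.5 UMIs (1507 to 18396) and the 72 HFD members 9219 (1583 to 16637). Pi16-low fibroblasts were shallower, at 7919.5 and 7559 UMIs. No barcode occurred in both libraries. Levels are given as CPM, the depth-scaled unit in which the UMIs of a gene are set against all UMIs of the cells of a class, with an exact Poisson 95% interval in parentheses. Ratios of CPM, with 0.5 UMI added to each sum, carry an exact conditional binomial 95% interval. Both intervals cover counting error only and not the spread between mice or between cells.

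Markers of other cell types had low levels in the members, which the gate set in part, since it capped Upk3b, Msln, Rgs5 and other genes of these types. The 5 macrophage markers summed to 36.8 CPM on LFD and 41.7 CPM on HFD, against 5121 and 7853 CPM in the ungated barcodes. The 5 endothelial markers summed to 11.3 and 25.3 CPM, the 5 mural markers to 8.25 and 35.7 CPM, and the 5 adipocyte markers to 6.002 and 4.46 CPM. T and B cell markers gave no UMI on LFD and 1 UMI each on HFD. Of the mesothelial genes only Wt1, which stromal progenitors of visceral fat also use, was well detected, at 188 and 138 CPM, and Upk3b, Msln and Lrrn4 were at 0. Ptprc, which encodes the pan-leukocyte protein CD45, had no UMI in the LFD members and 7 UMIs in 3 HFD members.

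The gate genes are given as a description, since they chose the cells. Pi16 (ENSMUSG00000024011, chromosome 17, 29317680 to 29330593, plus strand, GRCm38), a peptidase inhibitor of the fibroblast surface, stood at 930.3 CPM on LFD (879 to 984) and 576 CPM on HFD (519.9 to 636). Dpp4 (ENSMUSG00000035000, chromosome 2, 62330073 to 62412231, minus strand), a membrane protease that trims incretins and chemokines, stood at 269 CPM (241 to 298) and 187 CPM (156 to 223). Sema3c (ENSMUSG00000028780, chromosome 5, 17574281 to 17730268, plus strand), a secreted semaphorin, stood at 446 CPM (411 to 483) and 482 CPM (431 to 538). All 3 genes were seen together in 63.5% of LFD and 52.8% of HFD members, and the median sum was 10 and 9 UMIs. At the threshold, 13 LFD and 11 HFD members held exactly 3 UMIs, and 35 LFD and 18 HFD fibroblasts just outside it held 2. As a measure of free RNA, Pi16 was seen in 87.8 and 86.1% of members and in 1.69% of 178 LFD and 0.735% of 272 HFD macrophages, whose median depth was 6706.5 and 7127.5 UMIs.

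Markers that the gate did not use followed the label. Cd55 (ENSMUSG00000026399, chromosome 1, 130439027 to 130462744, minus strand), which encodes decay-accelerating factor, a shield against complement, stood at 907 CPM in LFD members (857 to 959.6) and 88.8 CPM in LFD Pi16-low fibroblasts. On HFD the levels were 1034 CPM (959 to 1114) and 75.2 CPM, so the members were 10.2-fold and 13.7-fold higher. With the gates applied after thinning each cell to 3000 UMIs, the log2 ratios were 2.38 on LFD and 2.68 on HFD, instead of 3.35 and 3.78. Fbn1 (ENSMUSG00000027204, chromosome 2, 125300594 to 125507993, minus strand), which encodes the microfibril protein fibrillin-1, stood at 2460 and 3834 CPM in members and 629.7 and 831 CPM in Pi16-low fibroblasts. After each cell was thinned to 3000 UMIs, Cd55 was seen in 73.4% of LFD and 81.7% of HFD members and in 23.3% and 17.7% of Pi16-low fibroblasts, against 91.2, 90.3, 39.5 and 38.5% unthinned. Thinning left out 5 LFD and 1 HFD members. In macrophages the unthinned Cd55 share was 1.12 and 2.94%.

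The levels of several genes changed stepwise with the gate-gene UMIs. Over all gated fibroblasts, Cd55 rose from 74.6 CPM in LFD cells with no gate-gene UMI to 251 CPM in cells with 3 to 4 and 1570 CPM in cells with 20 or more, and on HFD from 71.5 through 336 to 2270 CPM. Col14a1, a fibril-associated collagen, ran the same way, from 87.6 through 251 to 1069 CPM on LFD and from 154 through 529 to 1621 CPM on HFD. Apoe, the lipid carrier apolipoprotein E, ran the opposite way, from 1854 through 311 to 23.05 CPM on LFD and from 1884 through 161 to 9.83 CPM on HFD. For these 3 genes the members with 3 to 4 gate-gene UMIs had levels between those of the outer bins. Median depth rose along the same axis, from 7445 to 10292 UMIs on LFD and from 7460.5 to 10097.5 UMIs on HFD, and its part in the gradient was not tested.

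**Figure D1:**
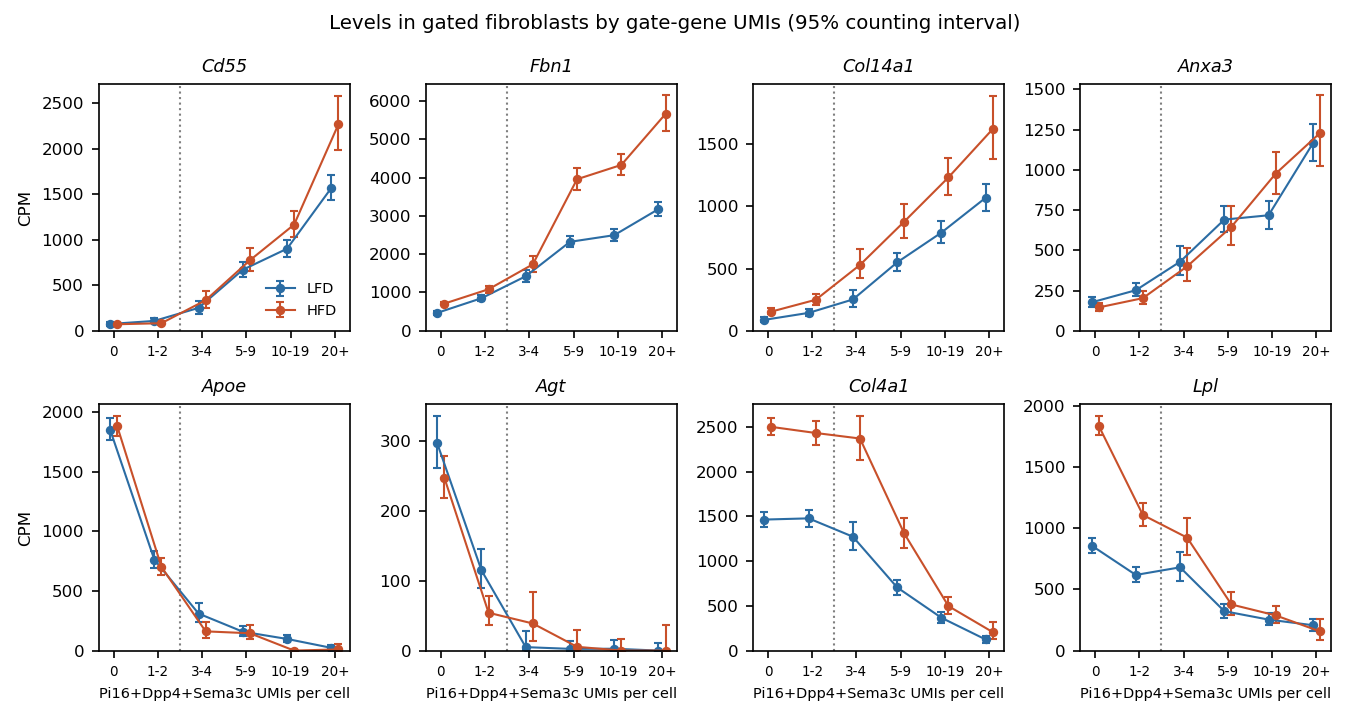
Level of 8 genes (CPM, linear axes from 0) in gated fibroblasts, in bins of the summed Pi16, Dpp4 and Sema3c UMIs of a cell, for the LFD (blue) and HFD (red) libraries; points are CPM of the pooled cells of a bin, bars the exact Poisson 95% interval, and the dotted line the gate between 2 and 3 UMIs. Cd55, Fbn1, Col14a1 and Anxa3 climbed with the gate genes in both libraries, and Apoe, Agt, Col4a1 and Lpl declined.

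Across 5181 genes with at least 50 UMIs over both classes in each library, 125 were at least 2-fold higher in the members than in Pi16-low fibroblasts on both diets, which is 2.41% of the genes, and 111 were at least 2-fold lower on both, or 2.14%. Of the interstitial progenitor list, which does not hold the gate genes, 17 of 20 measured genes were at least 2-fold higher in both libraries. The list was drawn up with results of these data known, so the count is a description only. Dact2, a Dishevelled-binding protein of the WNT pathway, had the steepest contrast, with 108 UMIs in LFD and 49 UMIs in HFD members and 1 UMI in each set of Pi16-low fibroblasts. Its ratios were 79.5 (20.8 to 4729) and 78.3 (19.9 to 4685), or log2 ratios of 6.31 and 6.29. Under the study's filter (at most 2500 genes and under 5% mitochondrial UMIs) its log2 ratios were 3.55 and 4.24. With the gates applied after thinning each cell to 3000 UMIs, its log2 ratio on LFD was 3.92. Efhd1, a calcium-binding protein of mitochondria, stood at 163 CPM in LFD and 109 CPM in HFD members, and 22.8-fold and 26.8-fold above Pi16-low fibroblasts. Limch1, a regulator of actomyosin, stood at 146 and 150.3 CPM and was 22.5-fold and 22.9-fold higher. These contrasts were smaller with the gates applied after thinning each cell to 3000 UMIs. There the log2 ratios of Efhd1 were 2.91 on LFD and 3.01 on HFD, instead of 4.51 and 4.75. Those of Limch1 were 3.12 and 2.95, instead of 4.49 and 4.52.

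Other members of the list held the same order at higher levels. Anxa3, an annexin, stood at 782 CPM in LFD and 790.1 CPM in HFD members against 208 and 164 CPM in Pi16-low fibroblasts. Ackr3, a scavenger receptor for the chemokine CXCL12, stood at 563 and 512 CPM against 119 and 119 CPM. Creb5, a transcription factor, stood at 431 and 476 CPM against 143 and 87.8 CPM. The 3 measured genes of the list that missed the 2-fold mark in at least one library were Heg1 (1.94-fold and 2.35-fold), Timp2 (1.54-fold and 1.43-fold) and Tppp3 (1.23-fold and 1.46-fold).

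Genes outside the list were also among the 15 with the highest ratios. Ptgs1, which encodes cyclooxygenase-1, stood at 87.02 and 75.9 CPM in members, 7.76-fold and 8.43-fold above Pi16-low fibroblasts. Mgll, the lipase that splits monoglycerides, was 6.72-fold higher on LFD and 17.8-fold higher on HFD. The matricellular gene Nov was 15.6-fold and 42.8-fold higher, and the WNT inhibitor Sfrp4 24.7-fold and 9.38-fold higher. With the gates applied after thinning each cell to 3000 UMIs, the log2 ratios of Nov were 2.41 on LFD and 3.81 on HFD, instead of 3.96 and 5.42. Those of Sfrp4 were 2.27 and 1.56, instead of 4.63 and 3.23. Aif1l, Cmah, Tmem158, Sbsn, Ildr2, Rras2 and the list gene Uchl1 completed the set, with ratios from 6.07 (Rras2, LFD) to 24.6 (Aif1l, LFD). Under the study's filter Uchl1 fell short of 2-fold on HFD, with a log2 ratio of 0.90.

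**Figure D2:**
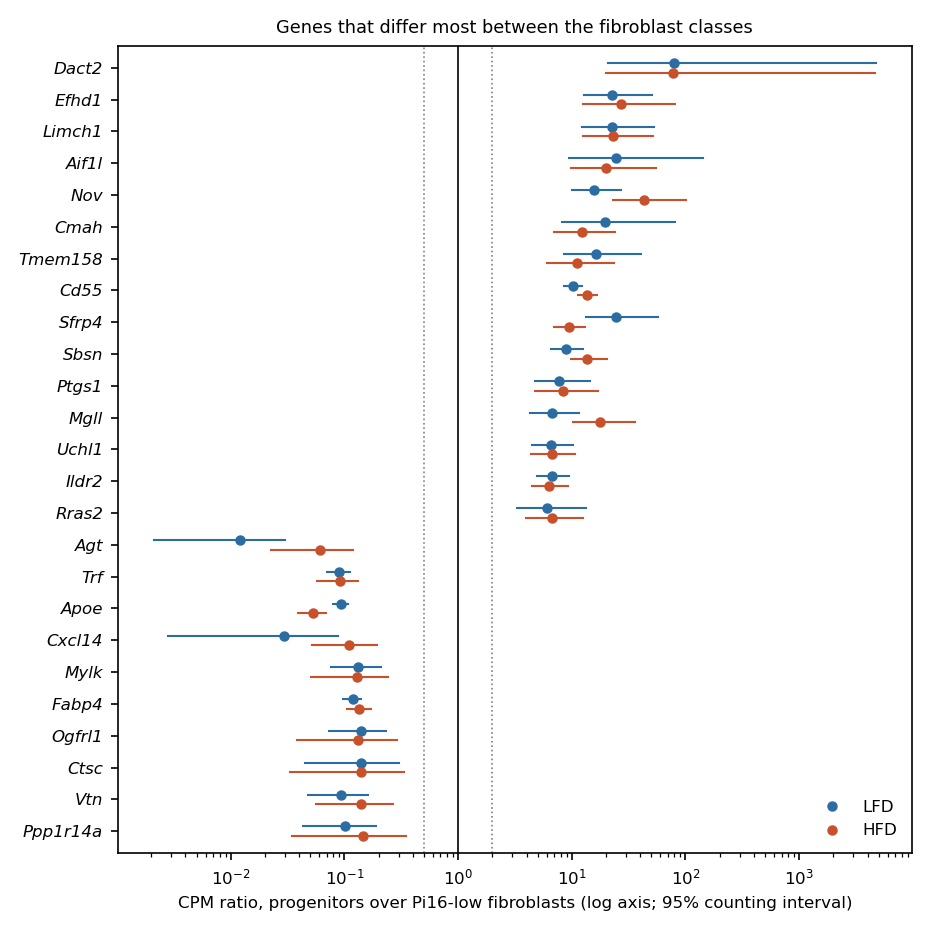
Ratio of CPM in members over Pi16-low fibroblasts (log axis) for the 15 highest and 10 lowest genes, in the LFD (blue) and HFD (red) libraries; points are ratios, lines the conditional binomial 95% interval, the solid line a ratio of 1 and dotted lines 2-fold. Dact2 had ratios of 79.5 and 78.3, and Agt ratios of 0.01196 (0.00211 to 0.0303) and 0.0604 (0.0225 to 0.118).

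Some adipogenic and preadipocyte genes were low in the members. Fabp4, the fatty acid carrier of adipocytes, stood at 104 and 112 CPM against 879.6 and 828 CPM. Pparg, the nuclear receptor that drives adipogenesis, had 0 UMIs in LFD members, a count that allows up to 2.25 CPM (3 UMIs), and 2 UMIs in HFD members. In Pi16-low fibroblasts Pparg stood at 15.7 and 16.9 CPM. Lpl, lipoprotein lipase, stood at 327 and 439 CPM in members, with ratios to Pi16-low fibroblasts of 0.433 and 0.275. Of 9 measured adipogenic and preadipocyte genes, 4 were at least 2-fold lower in the members in both libraries, beside 2.14% of all genes, and none at least 2-fold higher, so that 5 passed in neither direction. Dlk1, a marker of preadipocytes, had no UMI in the members. Ebf2, a transcription factor of early adipocyte precursors, ran the other way, at 369.9 and 201 CPM in members and 2.11-fold and 1.55-fold above Pi16-low fibroblasts.

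Genes listed as adipogenesis regulators were low as well. Agt, angiotensinogen, had 3 UMIs in LFD members and 7 in HFD members, or 2.25 and 10.4 CPM, against 219 and 184 CPM in Pi16-low fibroblasts. With Pi16 left out of the gate its log2 ratios were -4.31 on LFD and -7.88 on HFD, instead of -6.39 and -4.05. Gdf10, a secreted ligand of the TGF-beta superfamily, stood at 86.3 and 56.5 CPM in members and 363 and 169.9 CPM in Pi16-low fibroblasts. F3, tissue factor (CD142), stood at 82.5 and 74.4 CPM, with ratios of 0.543 and 0.3297. Of 4 measured genes of this list, 3 were at least 2-fold lower in the members in both libraries, beside 2.14% of all genes. The remaining lowest genes had varied roles. Apoe stood at 129 and 78.9 CPM in members against 1393 and 1500 CPM. Trf, transferrin, had ratios of 0.0892 and 0.0909, and Vtn, vitronectin, of 0.0942 and 0.141. Mylk, myosin light chain kinase, had ratios of 0.133 and 0.128, and Ppp1r14a, an inhibitor of myosin phosphatase, of 0.102 and 0.145. Ctsc, a lysosomal protease, had ratios of 0.139 and 0.1396, and Ogfrl1 of 0.139 and 0.133. Cxcl14 had 2 UMIs in LFD members and 11 UMIs in HFD members, all of the latter in 1 cell. Under the study's filter the log2 ratios of Ctsc were -0.49 on LFD and -0.38 on HFD and that of Mylk on HFD was -0.82, all short of 2-fold.

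Surface and signalling genes set the members apart by degree. Cd34 stood at 971 and 943 CPM, 2.01-fold and 2.78-fold above Pi16-low fibroblasts, and Thy1 (CD90) was 2.99-fold and 2.57-fold above them. Pdgfra missed the 2-fold mark (ratios 0.769 and 0.842), whereas Pdgfrb, the receptor for PDGF-BB, was lower in the members (ratios 0.448 and 0.4303). Bmp7, a ligand that promotes brown adipogenesis, had 47 UMIs in LFD and 6 UMIs in HFD members, against 1 and 0 in Pi16-low fibroblasts. Bmp2 was 7.12-fold and 5.62-fold higher in members, and Tgfb2 2.81-fold and 2.13-fold higher. The WNT modulator Sfrp2 stood at 183 and 106 CPM, 10.5-fold and 5.22-fold higher. Among IGF genes the ligand Igf1 was lower in members (ratios 0.181 and 0.248) and the binding protein Igfbp5 higher (34.5-fold and 5.95-fold).

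Matrix genes differed from Pi16-low fibroblasts gene by gene. Fbn1 and Mfap5 were 3.91-fold and 2.33-fold higher than in Pi16-low fibroblasts on LFD and 4.61-fold and 2.59-fold higher on HFD, and fibronectin (Fn1) stood at 4514 and 5497 CPM, 3.33-fold and 3.71-fold higher. Of 16 measured elastic fibre and microfibril genes, 4 were at least 2-fold higher in the members in both libraries, beside 2.41% of all genes. One, Lox, was at least 2-fold lower in both, beside 2.14% of all genes. Col14a1 was the single gene of 13 measured fibrillar and type VI collagens at least 2-fold higher in both, at 6.34-fold and 5.57-fold. Col6a6 was the single one at least 2-fold lower, and the shares over all genes were 2.41 and 2.14%. Of 14 basement membrane genes 3 were at least 2-fold lower in both, beside 2.14% of all genes. They were Col4a1 (ratios 0.3704 and 0.448), Col4a2 (0.335 and 0.407) and Col15a1 (0.191 and 0.402). The median log2 ratio of members over Pi16-low fibroblasts was -0.08 on LFD and 0.06 on HFD for the elastic fibre and microfibril list, -0.56 on LFD and -0.38 on HFD for the collagens, and -0.42 on LFD and -0.32 on HFD for the basement membrane list, beside about 0 and 0.01 over all genes. Ribosomal protein genes took 15.4 and 13.8% of the members' UMIs and 12.3% of those of Pi16-low fibroblasts on either diet.

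Members were a smaller share of the HFD library. They made up 148 of 348 gated fibroblasts on LFD, or 42.5% (exact binomial 95% interval 37.3 to 47.9%), and 72 of 277 on HFD, or 25.99% (20.9 to 31.6%). The log2 ratio of these shares was -0.71, with a Katz interval from -1.05 to -0.37. Among all barcodes with at least 200 genes the shares were 14.0% (11.97 to 16.2%) and 6.45% (5.08 to 8.05%). The intervals treat cells as independent draws and leave out variation between mice. A larger share of HFD members lay next to the gate, with 26.4% at 3 to 4 gate-gene UMIs against 16.9% on LFD. With the gate applied after thinning every cell to 3000 UMIs, the log2 ratio was -1.27.

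Between the diets, 4950 genes had at least 50 UMIs over the members. Of these, 72 were at least 2-fold higher on HFD (1.45%) and 93 at least 2-fold lower (1.88%), around a median log2 ratio of 0.03. The 12 highest ratios held 4 MHC class II genes, which rested largely on 1 cell. They also held Stmn1 and matrix genes such as Timp1, Col8a1, Postn and Mfap2. The 12 lowest held 4 interferon-inducible GTPases. In Pi16-low fibroblasts 96 of 6278 genes were at least 2-fold higher (1.53%) and 125 at least 2-fold lower (1.99%).

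**Figure D3:**
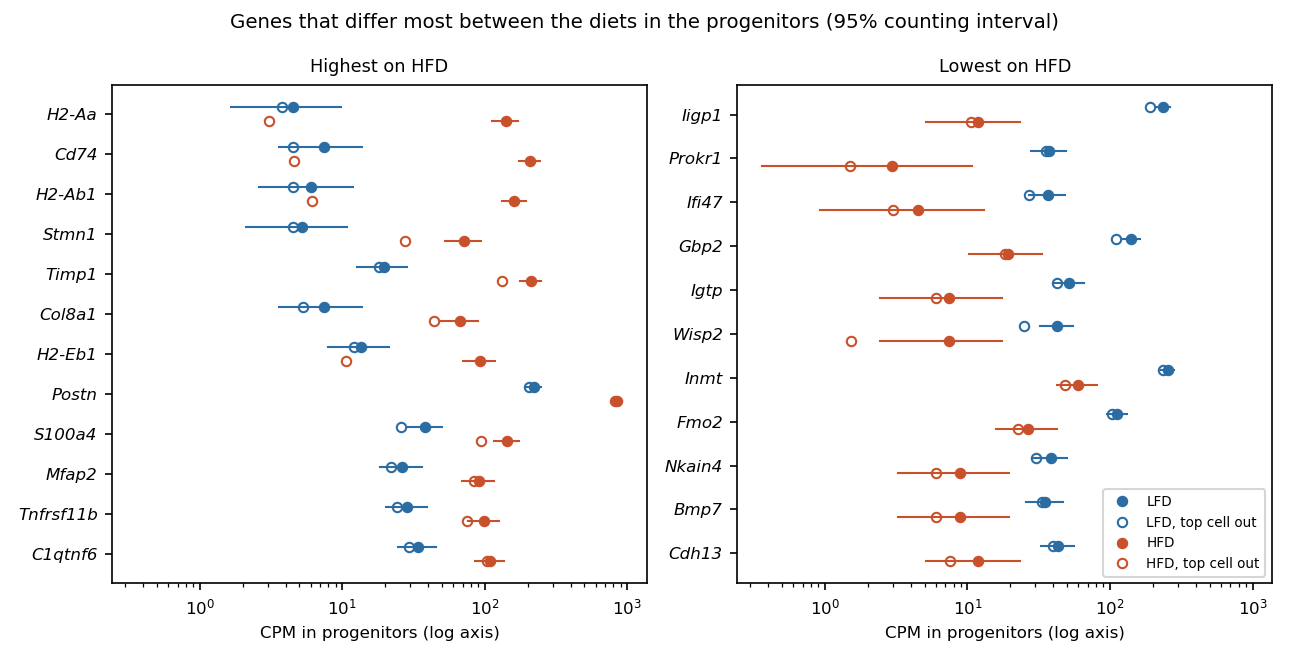
CPM in members (log axes) for the 12 genes with the highest and 11 of the 12 with the lowest HFD to LFD ratio, in LFD (blue) and HFD (red) members; filled points are all members with the exact Poisson 95% interval, and open points leave out the member with the most UMIs of that gene. For H2-Aa, Cd74, H2-Ab1 and H2-Eb1 the open HFD points fall to the LFD level, and for the 11 low genes the ratio without those members was at most 0.224.

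Every one of the 14 fibrillar and type VI collagens had a higher level in HFD than in LFD members, beside 53.4% of all genes. Their median log2 ratio was 0.81 beside 0.03 over all genes, and 3 of them reached 2-fold, beside 1.45% of all genes. In Pi16-low fibroblasts the median was 0.78. Summed, the 14 genes took 8587 CPM on LFD (8430 to 8746) and 17777 CPM on HFD (17459 to 18098). Col3a1 (ENSMUSG00000026043, chromosome 1, 45311538 to 45349706, plus strand), the type III fibril chain, rose most, from 2479 CPM (2396 to 2565) to 7477 CPM (7272 to 7687), a ratio of 3.02 (2.89 to 3.15). The minor type V chain Col5a3 had a ratio of 2.62 (2.24 to 3.08) and the type VI chain Col6a5 of 2.32 (1.92 to 2.81). Col1a1 and Col1a2 had ratios of 1.68 and 1.56, and Col6a1 of 1.99, just under the 2-fold mark. At the lower end were Col6a6, with a ratio of 1.02 (0.670 to 1.53), and Col16a1, with 1.21 (0.762 to 1.88), whose intervals hold 1.

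Basement membrane genes split. Col15a1 (ratio 3.02, 2.24 to 4.12), Col4a1 (2.04, 1.84 to 2.26), Col4a2 (2.22, 1.86 to 2.64) and the collagen-binding glycoprotein Sparc (2.09) were at least 2-fold higher on HFD. These were 4 of 14 measured genes, beside 1.45% of all genes. No gene of the list was at least 2-fold lower, beside 1.88% of all genes. In Pi16-low fibroblasts 1 of 14 was at least 2-fold higher, beside 1.53% of all genes. The laminin chains Lama4, Lamb1, Lamb2 and Lamc1 had ratios from 0.891 to 0.929, and the list's median log2 ratio was 0.10. Col4a1 and Col15a1 were lower in members than in Pi16-low fibroblasts, and Col4a1 declined along the gate. In bins of gate-gene UMIs Col4a1 stood at 706 CPM on LFD and 1308 CPM on HFD in cells with 5 to 9 gate-gene UMIs, and at 124 and 206 CPM, with overlapping intervals, in cells with 20 or more.

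Small leucine-rich proteoglycans, which coat collagen fibrils, were higher in part. Lum (lumican) stood at 494 CPM on LFD and 1495 CPM on HFD, a ratio of 3.02 (2.74 to 3.34), Aspn (asporin) had a ratio of 2.72 (2.27 to 3.27) and Bgn (biglycan) of 2.18 (1.99 to 2.39). These were the 3 of 7 measured genes of the list at least 2-fold higher, beside 1.45% of all genes, and Ogn (osteoglycin) was the only measured one below 1, with a ratio of 0.718 (0.6496 to 0.792). Decorin itself, which the gate used, stood at 15523 and 12671 CPM. Of 16 elastic fibre and microfibril genes, Mfap2 alone passed 2-fold, beside 1.45% of all genes. Its ratio was 3.44 (2.25 to 5.398), while Fbn1 had a ratio of 1.56 (1.48 to 1.64).

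Among the 18 proteases and inhibitors with at least 50 UMIs the highest ratio was that of Timp1 (ENSMUSG00000001131, chromosome X, 20870166 to 20874735, plus strand), a secreted inhibitor of matrix metalloproteinases. It stood at 19.5 CPM on LFD (12.7 to 28.6, 26 UMIs) and 209.8 CPM on HFD (177 to 247, 141 UMIs), a ratio of 10.6 (7.04 to 17.03). One HFD member held 37.6% of the HFD UMIs, and without the top cell of each library the ratio was 7.22. The log2 ratio of 3.40 was 2.56 with Pi16 left out of the gate and 1.76, from 2 and 6 UMIs, under the study's filter. Timp1 was seen in 20 of 148 LFD and 36 of 72 HFD members, and in 1.69 and 5.88% of macrophages. The other inhibitors did not follow it, since Timp2 had a ratio of 0.867 and Timp3 of 0.668. The gelatinase Mmp2 and the collagenolytic cathepsin Ctsk passed 2-fold, with ratios of 2.15 (1.73 to 2.67) and 2.03 (1.57 to 2.63). The stromelysin Mmp3 had 0 UMIs on LFD, which allows up to 2.25 CPM, and 33 UMIs on HFD, of which 1 cell held 69.7%.

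Postn (ENSMUSG00000027750, chromosome 3, 54361109 to 54391037, plus strand), which encodes the matricellular protein periostin, stood at 221 CPM on LFD (196 to 247) and 853 CPM on HFD (784 to 925), a ratio of 3.86 (3.35 to 4.46). It was seen in 39.9% of LFD and 79.2% of HFD members and in 1.12 and 3.68% of macrophages. Together with Tpm2, a tropomyosin (ratio 2.39), it was one of the 2 contractile-list genes of 6 measured at least 2-fold higher, beside 1.45% of all genes. Under the study's filter Postn had 6 LFD and 60 HFD UMIs, a wider gap in the same direction. The smooth muscle genes were under the UMI minimum. Acta2 (smooth muscle actin) had 1 UMI on LFD and 5 on HFD, and Tagln (transgelin) 4 and 19 UMIs, or 3.001 and 28.3 CPM, a ratio of 8.59 (3.13 to 38.1) with 42.1% of the HFD UMIs in 1 cell. These 2 genes gave all 24 HFD UMIs of the mural markers. The other mural markers, Rgs5, Myh11 and Mcam, had 1, 3 and 2 UMIs in LFD members and none in HFD members. Tnc, tenascin C, had no UMI in the members of either library. Cd44, the hyaluronan receptor that also binds osteopontin, had a ratio of 3.09 (2.28 to 4.24), from 53.3 to 165 CPM.

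**Figure D4:**
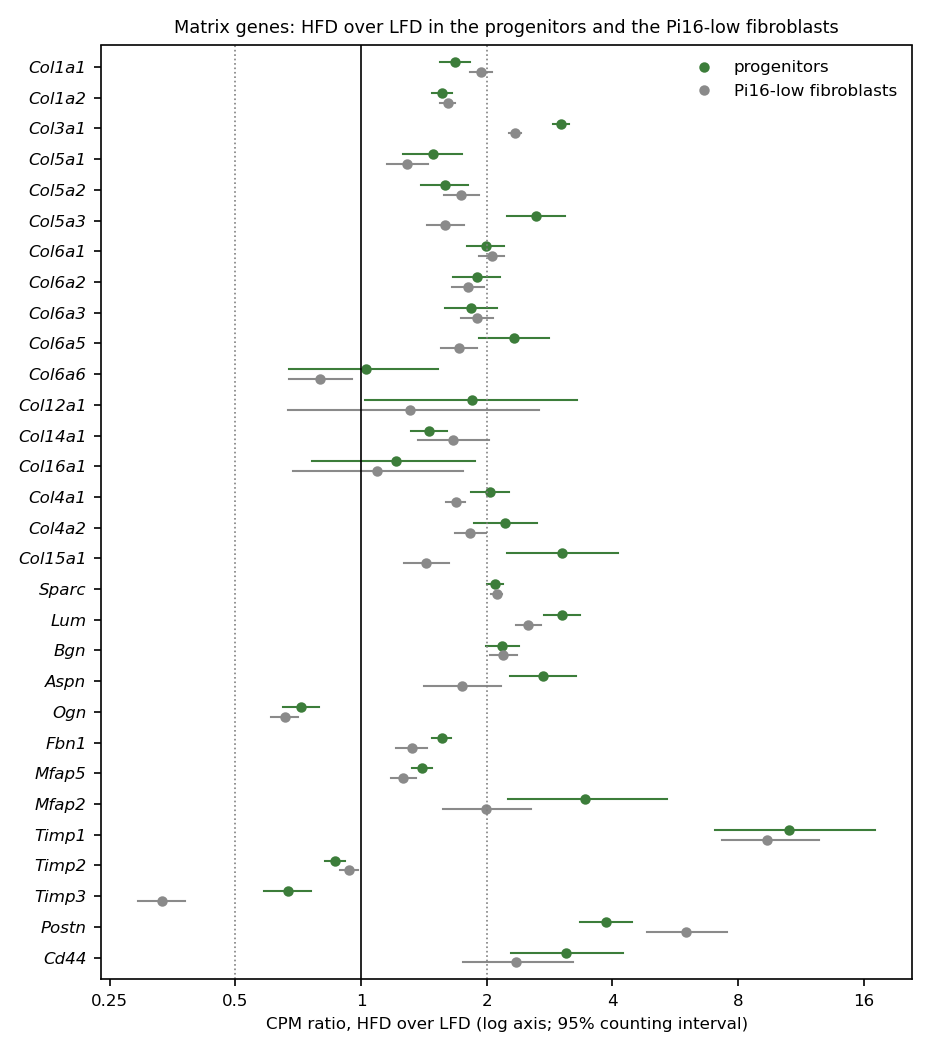
Ratio of CPM on HFD over LFD (log axis) for 30 matrix genes in the members (green) and Pi16-low fibroblasts (grey); points are ratios, lines the conditional binomial 95% interval, the solid line a ratio of 1 and dotted lines 2-fold. Col3a1 lies at 3.02 in members and 2.34 in Pi16-low fibroblasts, Timp1 at 10.6 and 9.41, and Timp3 at 0.668 and 0.333.

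The HFD members held fewer gate-gene UMIs, and the matrix levels are therefore also given by bin of gate-gene UMIs, as a description. In cells with 10 to 19 UMIs the 14 collagens summed to 7110 CPM on LFD and 16382 CPM on HFD, and in cells with 20 or more to 6813 and 10758 CPM. The sum was higher on HFD in each of the 4 member bins. Postn stood at 277 and 989 CPM in cells with 10 to 19 UMIs, and Timp1 at 5.28 and 95.9 CPM. Timp1 was lower in the upper 2 bins than in the lower 2 on both diets, while Postn in HFD members was lowest in cells with 3 to 4 UMIs, at 594 CPM. Aspn was lower on HFD in cells with 3 to 4 UMIs, at 177 and 83.9 CPM with overlapping intervals, and higher on HFD in the other 3 member bins.

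The remaining genes with the highest ratios had mixed origins. Tnfrsf11b, osteoprotegerin, a decoy receptor for RANKL, stood at 28.5 and 98.2 CPM (ratio 3.43, 2.28 to 5.28) against 4.098 and 4.39 CPM in Pi16-low fibroblasts, from 6 and 7 UMIs. Its log2 ratio of 1.78 was 1.09 with the gates applied after thinning each cell to 3000 UMIs. C1qtnf6, a secreted C1q/TNF-related protein, had a ratio of 3.204 (2.19 to 4.77), and the network-forming collagen Col8a1 of 8.59 (4.43 to 19.9). Under the study's filter Col8a1 had 1 LFD and 0 HFD UMIs, a log2 ratio of -1.20. S100a4, a calcium-binding protein, had a ratio of 3.72 (2.63 to 5.35), with 33.3% of LFD and 35.4% of HFD UMIs in 1 cell each. Wnt2, a ligand of the interstitial list, was under the UMI minimum with 4 and 27 UMIs. Stmn1, a regulator of microtubules that is high in dividing cells, rose from 7 to 48 UMIs, 62.5% of them in 1 HFD cell. Without the top cell of each library its log2 ratio was 2.52 instead of 3.68. Under the study's filter it had 2 LFD and 0 HFD UMIs. Mki67, a gene of cycling cells, had 0 UMIs in LFD members and 19 in HFD members, all in 2 cells.

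The 4 MHC class II genes among the highest ratios came from 1 cell. H2-Aa, H2-Ab1, H2-Eb1 and the invariant chain Cd74, which serve peptide display on antigen-presenting cells, had ratios of 28.8, 25.3, 6.701 and 26.5. A single HFD member held 411 of the 430 UMIs of the MHC class II list, and without the top cell of each library the ratios were 0.919, 1.402, 0.918 and 1.09. That barcode had 16486 UMIs and 4394 genes, with 68 UMIs of Dcn, 7 of Pi16, 5 of Ptprc, 10 of the dendritic cell lectin Cd209a and 12 of Tyrobp. It was among the 19 HFD barcodes of 1117 that Scrublet, a caller of mixed barcodes, marked.

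Interferon-inducible GTPases formed a block of low genes on HFD. These guanylate-binding (Gbp) and immunity-related (Irgm, Igtp, Iigp1, Ifi47) proteins are switched on by interferon-gamma and attack the vacuoles of intracellular microbes. The family was put together after its values were seen. Of its 16 genes, 8 reached 50 UMIs, with most of the family UMIs in the LFD library, and 7 of these were at least 2-fold lower on HFD, a count that the choice of genes and the UMI minimum largely fix. Iigp1 had 314 UMIs in LFD and 8 in HFD members, or 236 CPM (210.2 to 263) and 11.9 CPM (5.14 to 23.5), a ratio of 0.0536 (0.0216 to 0.101). Its log2 ratio of -4.22 was -3.03 with Pi16 left out of the gate and -2.43, from 10 and 1 UMIs, under the study's filter. Gbp2 (ENSMUSG00000028270, chromosome 3, 142620602 to 142638008, plus strand) stood at 140.3 CPM (121 to 162) and 19.3 CPM (10.3 to 33.1), a ratio of 0.143 (0.0721 to 0.242). Igtp and Ifi47 had ratios of 0.157 (0.0452 to 0.352) and 0.1402 (0.0242 to 0.376). Under the study's filter, which left 22 LFD and 15 HFD members, Igtp had 1 UMI in each library and Ifi47 none, so that their log2 ratios came to 0.38. Irgm1, Gbp7 and Irgm2 had ratios of 0.297, 0.306 and 0.373, and Gbp3, at 0.578, was the measured gene that missed the 2-fold mark. These genes have near relatives in the genome, and how multiply mapped reads were shared among them was not tested.

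Promoter windows of 3 of these genes are shown because they fell together. Each runs 5′ to 3′ on the plus strand from 250 bases before the RefSeq start to 50 bases into the gene (RefSeq, build GRCm38.p6). Capitals mark letters of TTCNNNGAA, the shape of a gamma-activated site, or the ISRE core (GAAA, any 2 bases, GAAA), the shape bound by IRF proteins, read on both strands. The windows are chr3:142620413-142620712 (Gbp2), chr3:142530086-142530385 (Gbp7) and chr11:58199306-58199605 (Igtp).
Gbp2: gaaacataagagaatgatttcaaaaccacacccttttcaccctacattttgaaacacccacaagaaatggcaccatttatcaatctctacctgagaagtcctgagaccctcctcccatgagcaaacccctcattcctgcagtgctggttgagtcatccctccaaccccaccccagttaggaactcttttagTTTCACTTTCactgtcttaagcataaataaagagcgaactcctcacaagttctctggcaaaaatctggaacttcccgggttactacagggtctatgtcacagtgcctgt
Gbp7: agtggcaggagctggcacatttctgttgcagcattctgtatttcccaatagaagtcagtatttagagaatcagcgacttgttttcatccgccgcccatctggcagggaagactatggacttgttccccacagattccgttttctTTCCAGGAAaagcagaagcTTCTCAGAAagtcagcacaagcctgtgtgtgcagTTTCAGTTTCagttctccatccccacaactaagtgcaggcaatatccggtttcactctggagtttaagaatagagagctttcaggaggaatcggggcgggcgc
Igtp: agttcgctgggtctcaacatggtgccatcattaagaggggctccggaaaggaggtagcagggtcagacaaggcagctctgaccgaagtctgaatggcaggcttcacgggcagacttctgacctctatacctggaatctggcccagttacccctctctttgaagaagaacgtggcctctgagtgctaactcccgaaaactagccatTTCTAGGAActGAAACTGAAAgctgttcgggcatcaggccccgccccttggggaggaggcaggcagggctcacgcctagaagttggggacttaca
The ISRE core was present in windows of 10 of the 11 family genes with a RefSeq window, against 3.99% of all 27025 genes, and TTCNNNGAA in 6 of 11, against 9.55%. The family was chosen as interferon-inducible, so these shares are not a result about the diets. Iigp1, the lowest gene on HFD, had no window. The TTCNNNGAA match had the same letters in Tgtp1, Tgtp2 and Irgm2. In Igtp the TTCNNNGAA match began 45 bases before the start and the ISRE core 34 bases before it. The Igtp and Irgm2 windows shared an identical run of 61 bases  around the start, outside both matches, so the 2 windows are not independent examples. The window of Ifi47 held neither motif. A match describes letters only and shows no binding.

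The LFD signal was uneven among cells. Family UMIs, 937 on LFD and 84 on HFD in all, were highest in a few LFD members, and 10 cells held 67.1% of them. The highest LFD member had 129 UMIs and the highest HFD member 7. At least 5 family UMIs were found in 29 of 148 LFD members (19.6%, exact binomial 95% interval 13.5 to 26.9%) and 2 of 72 HFD members (2.78%, 0.338 to 9.68%). No family UMI was found in 40 LFD and 24 HFD members. Pi16-low fibroblasts ran the same way, with at least 5 UMIs in 37 of 200 LFD cells (18.5%) and 11 of 205 HFD cells (5.37%). Only 2 of the 4 family genes measured there were at least 2-fold lower, however, beside 1.99% of all genes in that class. Gbp2 stood at 26.05 CPM on LFD and 28.8 CPM on HFD in cells with no gate-gene UMI and at 37.1 and 21.2 CPM in cells with 1 to 2. In members with 5 to 9 gate-gene UMIs Gbp2 was also at like levels, 27.2 and 32.3 CPM, whereas in members with 10 to 19 it stood at 293 and 8.71 CPM. In the ungated barcodes the family summed to 1140 CPM on LFD and 403 CPM on HFD.

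**Figure D5:**
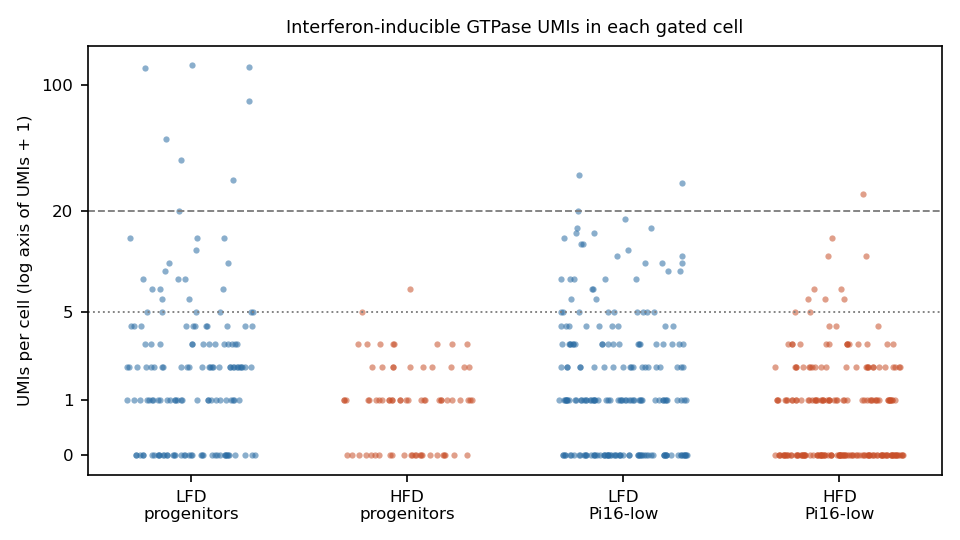
UMIs of the interferon-inducible GTPase family in each gated fibroblast (log axis of UMIs + 1), for members and Pi16-low fibroblasts of the LFD (blue) and HFD (red) libraries; each point is a cell, spread sideways for visibility, and lines mark 5 and 20 UMIs. In the members 8 LFD cells and no HFD cell reached 20 UMIs.

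Signalling genes of the interferon pathway were lower in part. Irf1, a transcription factor induced by interferon, stood at 159.8 CPM on LFD and 46.1 CPM on HFD (ratio 0.293, 0.191 to 0.422). The feedback inhibitor Socs1 (0.376), the nucleotide hydrolase Samhd1 (0.415), the nucleic acid sensors Zbp1 (0.307) and Ifih1 (0.475) were also at least 2-fold lower. In members with 5 to 9 gate-gene UMIs Samhd1 stood at 81.7 CPM on LFD and 102 CPM on HFD. Receptor and kinase genes missed that mark, with ratios of 0.895 for Ifngr1, 1.73 for Ifngr2, 1.69 for Ifnar1 and 1.02 for Jak1. In all, 6 of 16 measured interferon signalling genes, a list also drawn up after values were seen, were at least 2-fold lower, beside 1.88% of all genes. Of 12 measured genes of the interferon and class I list, 2 passed the same mark, among them Isg15 (0.487, 0.278 to 0.786), and the class I genes H2-K1, H2-D1 and B2m had ratios of 0.905, 0.932 and 0.8604.

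Other low genes on HFD were fibroblast enzymes and signalling genes. Inmt, a methyltransferase, stood at 254 CPM (228 to 283) and 59.5 CPM (42.5 to 81.05), a ratio of 0.237 (0.164 to 0.325), and Fmo2, a flavin monooxygenase, had a ratio of 0.245 (0.138 to 0.392). With the gates applied after thinning each cell to 3000 UMIs, the log2 ratio of Fmo2 was -1.08 instead of -2.03. That of Inmt was -2.69 instead of -2.08. Of 16 measured detoxification genes, 3 were at least 2-fold lower (1.88% over all genes), Fmo2, Aox3 (0.397) and Adh1 (0.455), and the glutathione transferase Gstm1 fell short of it at 0.565. Prokr1, a prokineticin receptor, went from 50 to 2 UMIs, Bmp7 from 47 to 6, and Cdh13, the adiponectin-binding T-cadherin, from 58 to 8. Nkain4 had a ratio of 0.2503. Under the study's filter the log2 ratios of Cdh13, from 5 and 3 UMIs, and Nkain4, from 5 and 2, fell short of 2-fold, at -0.27 and -0.76. Wisp2, a matricellular gene, had a ratio of 0.1897 (0.0544 to 0.4302), with 42.1% of LFD and 80.0% of HFD UMIs in 1 cell each. With Pi16 left out of the gate its log2 ratio was -0.96, short of 2-fold.

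Single WNT and TGF-beta genes were lower on HFD. Sfrp1, a secreted WNT inhibitor, stood at 144 and 56.5 CPM (ratio 0.397, 0.2696 to 0.558), against a ratio of 0.8801 in Pi16-low fibroblasts, and the ligand Wnt5a at 111 and 50.6 CPM (0.461, 0.304 to 0.665). These were the 2 of 8 measured WNT genes at least 2-fold lower, beside 1.88% of all genes, and none was at least 2-fold higher. The summed list stood at 1084 CPM on LFD and 1070 CPM on HFD. Of 16 measured TGF-beta and BMP genes, 2 were at least 2-fold lower, beside 1.88% of all genes, while the summed list was higher on HFD, at 4741 and 5299 CPM. Inhbb, an activin subunit, had a ratio of 0.373 (0.194 to 0.634), with 53.3% of HFD UMIs in 1 cell and 82 LFD and 15 HFD UMIs in all. Bmp7 was the other. Bmp2 and Tgfb2, both high in members, had ratios of 0.510 (0.299 to 0.808) and 0.567 (0.426 to 0.739). The complement component C4b had a ratio of 2.15 (1.49 to 3.12) and was the 1 of 7 measured complement genes at least 2-fold higher, beside 1.45% of all genes. Another 1 was at least 2-fold lower, beside 1.88% of all genes, and the summed list stood at 7684 CPM on LFD and 6798 CPM on HFD.

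Genes of the interstitial progenitor list with at least 50 UMIs differed by less than 2-fold between the diets, with 1 exception. Of 21 measured interstitial progenitor genes, none was at least 2-fold higher, beside 1.45% of all genes, and 1, Bmp7, at least 2-fold lower, beside 1.88%. The list's median log2 ratio was -0.10. The ratios of the other genes ran from Opcml, an adhesion protein, at 0.602 (0.422 to 0.833) and Efhd1 at 0.6702 (0.505 to 0.874) to Fbn1 at 1.56 (1.48 to 1.64). Dact2 had a ratio of 0.905 (0.628 to 1.27), Cd55 of 1.14 (1.04 to 1.25), Anxa3 of 1.01 (0.909 to 1.12) and Ackr3 of 0.9104 (0.798 to 1.03). Cd34 (0.972), Ly6a (1.04) and Pdgfra (0.757) missed the 2-fold mark, as did Ebf2, which had a ratio of 0.545 (0.446 to 0.658). Among adipogenic genes Plin2, a lipid droplet coat protein, was the 1 of 9 at least 2-fold higher, beside 1.45% of all genes. It stood at 44.3 and 98.2 CPM (2.22, 1.54 to 3.21). The chemokine genes Ccl2 and Cxcl12 also passed 2-fold (2.02 and 2.13), but 1 HFD cell held 44.6% of the Ccl2 UMIs and without the top cells the ratio was 1.29. The cyclin-dependent kinase inhibitor Cdkn1a (p21) stood at 353 and 193 CPM (0.549, 0.447 to 0.666), and Cdkn2a had 1 and 0 UMIs. None of the 20 immediate early and stress genes, which report on tissue digestion, passed 2-fold in either direction, and their median log2 ratio was -0.24.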

How the data were processed

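Stromal cells of eWAT were profiled with 10x Chromium 3' chemistry, 1 library per diet. The authors deposited matrices of raw UMI counts, produced by Cell Ranger (3.0.2 per the file headers) on mm10, for 1113 LFD and 1144 HFD barcodes called as cells. The annotation was not given in the sources used here. Barcodes with at least 200 genes were gated on raw UMIs as described, and the study's filter of at most 2500 genes and under 5% mitochondrial UMIs was tried as an alternative, since it keeps 22 LFD and 15 HFD members.

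UMIs were summed per library and class with Python 3.11.15, numpy 2.4.6 and scipy 1.17.1. Genes needed at least 50 UMIs over the cells compared, and genes of the mitochondrial genome, ribosomal proteins, globins, the Y chromosome and X inactivation were left out. No p-value was computed. A gene was called past a 2-fold ratio. Doublets were called with Scrublet in scanpy 1.11.5 (expected rate 1%), which marked 1.51% of LFD and 1.70% of HFD barcodes, and were kept in the main values. The ratio and interval calculations were tested on simulated data. Gene positions are from GENCODE M21 (GRCm38), matched for 27645 of 27998 genes.

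Named genes were the gate genes and given markers, the 12 highest and 12 lowest HFD to LFD ratios among members, the 15 highest and 10 lowest ratios of members to Pi16-low fibroblasts in the less extreme library, and the genes of fixed lists. Members and lists were chosen with earlier results of these data known. The interferon, MHC class II, dendritic cell and minor collagen lists, and 2 alternatives (leaving out members with a Ptprc UMI, and the top cell of each gene), were added after seeing the data. Results of a few genes are not reported here. Other alternatives changed the filters, gates, scaling, UMI minimum and added UMIs.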

Additional observations from a re-analysis of the deposited data

Results flagged for a closer look

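In 7 genes the diet ratio of the members and that of Pi16-low fibroblasts pointed in opposite directions, each by at least 1.5-fold. This difference between classes was not tested. The diet ratio was measured in 4950 genes in members and 6278 in Pi16-low fibroblasts, and the number measured in both is not given here. The MHC class II genes had log2 ratios of HFD over LFD in members of 4.85 (H2-Aa), 4.73 (Cd74), 4.66 (H2-Ab1) and 2.74 (H2-Eb1), and of -3.16, -2.48, -2.82 and -1.33 in Pi16-low fibroblasts. Of the MHC class II UMIs, 1 HFD member held 411 of 430 and 1 LFD Pi16-low fibroblast 179 of 242. Cxcl2, a neutrophil chemokine, had log2 ratios of 0.83 in members and -2.16 in Pi16-low fibroblasts, and 1 cell held 37 of 85 UMIs in HFD members and another 79 of 100 in LFD Pi16-low fibroblasts.

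The other genes were spread over cells. Bnc2, a zinc finger protein of fibroblasts, had 31 LFD and 29 HFD UMIs in members, a log2 ratio of 0.89, against -0.87 in Pi16-low fibroblasts. The intervals of its ratios were 1.08 to 3.18 in members and 0.321 to 0.901 in Pi16-low fibroblasts. Socs4, a suppressor of cytokine signalling, had a log2 ratio of 0.82 in members and -0.69 in Pi16-low fibroblasts. The intervals of its ratios, 1.05 to 2.93 and 0.385 to 0.981, came close to 1.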

How the results depend on the processing

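No paired analysis was possible because each diet was 1 library. The log2 ratio of member shares (-0.71) was -1.27 when the gates were applied after thinning to 3000 UMIs. The study's filter left 22 LFD and 15 HFD members, with 526 genes for the diet comparison and 931 for the class comparison. There, 29 genes were at least 2-fold higher on HFD and 21 lower, of which 7 and 4 were among the 72 and 93 of the main comparison. In both libraries 24 genes were at least 2-fold higher and 27 lower in members than in Pi16-low fibroblasts. The collagen median was 1.26 instead of 0.81. Under that filter the log2 diet ratio turned to -0.84 for H2-Ab1, -1.94 for Stmn1 and H2-Eb1, -1.20 for Col8a1, and 0.38 for Ifi47 and Igtp. With a UMI minimum of 20, 180 of 7803 genes were at least 2-fold higher on HFD and 278 lower. Between the classes 189 of 7843 genes were higher in members and 174 lower. With a minimum of 100 the counts were 44 and 32 of 2861 genes between the diets and 82 and 73 of 3050 between the classes. Leaving out the top cell of each gene gave 147 lower genes on HFD instead of 93, and removes 1 of 72 HFD but 1 of 148 LFD members. It turned H2-Aa and H2-Eb1 to -0.12. Leaving out barcodes marked by Scrublet turned H2-Aa to -0.35, Cd74 to -0.56 and H2-Eb1 to -0.28, and leaving out members with a Ptprc UMI turned them to -1.04, -0.50 and -0.43. Of 986 values for single genes over 14 settings, 884 kept within counting error, 88 moved beyond it and 14 changed sign. The UMI minimum does not enter these values, so the 74 at a minimum of 20 and the 74 at 100 were kept by construction. Under the study's filter 35 of 74 values were kept, 33 moved and 6 changed sign. With the gates applied after thinning, 25 of 74 moved. The cause of the other changes was not tested. Depth limits genes under 50 UMIs, for which 0 UMIs allow up to 2.25 CPM in LFD and 4.46 CPM in HFD members.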

Other observations

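Further lists had few genes past 2-fold between the diets in the members. Over all genes, 1.45% were at least 2-fold higher on HFD and 1.88% at least 2-fold lower. Of 7 measured IGF genes none passed 2-fold, with Igfbp4, an IGF-binding protein, at 945 CPM on LFD and 644 CPM on HFD (ratio 0.682, 0.6097 to 0.761) and Igfbp7 at 1197 and 1888 CPM (1.58, 1.46 to 1.70). Of 7 measured osteopontin receptor genes Cd44 alone passed 2-fold, beside 1.45% of all genes at least 2-fold higher. The fibronectin receptor subunit Itga5 had a ratio of 1.69 (1.17 to 2.44) and Itga9 a ratio of 0.559 (0.339 to 0.866). Of 11 measured chemokine and acute phase genes 2 passed 2-fold, Ccl2 and Cxcl12, beside 1.45% of all genes. Without the top cells Ccl2 fell short of 2-fold. The eosinophil chemokine Ccl11 stood at 815 and 1210 CPM (1.48, 1.35 to 1.63). None of 6 measured cell cycle genes passed 2-fold.

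The dendritic cell list had 28 UMIs in LFD and 70 in HFD members, of which 1 HFD member held 56. Of 18 minor collagens, 12 had no UMI in LFD members and 12 none in HFD members, and Col8a1 was the 1 measured.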
